A study of Brassica rapa with 6 samples.

Results

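Homeodomain-leucine zipper (HD-ZIP) transcription factors were examined in leaf and petiole of baby Chinese cabbage, a compact *Brassica rapa* vegetable that forms a head. The members were the loci with 1 annotated gene whose deposited description names a homeobox-leucine zipper protein, and there were 96 of 49200 loci in the table, on all 10 chromosomes. The rule reads the descriptions, and 1 further locus with such a description was left out because it merges several genes. Following the names in the descriptions, 37 loci were placed in class I, 16 in class II, 11 in class III and 30 in class IV, and 2 annotated as ATHB-X were left unplaced. Both groups came from mature, untreated plants of the same inbred line, and they were 3 leaf libraries and 3 petiole libraries of rRNA-depleted total RNA. The petiole is the stalk that carries the leaf blade. Whether the numbered libraries of a tissue are from separate plants is not stated, so the p-values reflect only spread among these libraries, which may be technical.

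HD-ZIP factors are specific to plants. They join a homeodomain, which binds DNA, to a leucine zipper through which pairs of the proteins dimerise. In Arabidopsis, class I factors act in responses to water deficit, abscisic acid and light and in leaf growth, and class II factors act in shade avoidance and auxin response. Class III factors set the upper (adaxial) side of the leaf and pattern vascular tissue, and their transcripts are targets of the microRNAs miR165 and miR166. Class IV factors specify epidermis and shape trichomes, stomata and cuticle. The roles named below come from Arabidopsis unless stated, and small RNA libraries were not analysed here. No sequences are shown because the tables used here hold none.

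Levels are CPM (each count as a share of its library's total, per 1e6 counts) after TMM scaling, from deposited estimated counts that totalled between 111518411 and 132861243 units per library. A sequenced fragment adds about 3.7 of these units. Each log2 fold change is the petiole value minus the leaf value, given with its standard error (SE), and p-values are from edgeR's quasi-likelihood test with Benjamini-Hochberg adjustment over the 31473 loci tested, against a threshold of 0.05. Levels of different loci are compared per length, as FPKM, within 1 tissue. Between tissues the deposited FPKM stand higher in petiole than the CPM do, by a factor of 1.67 (median log2 shift 0.74), so directions below are relative to the middle of all loci, whose median log2 fold change was 0.01. The labelled tissues differed in the markers of leaf mesophyll, of which 29 of 30 tested loci were higher in leaf, with a summed level of 6017 to 6465 CPM in leaf against 467 to 502 CPM in petiole. In bulk tissue, fewer cells of a type and less RNA per cell cannot be told apart.

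Of the 96 HD-ZIP loci, 15 had no count in any library and 73 passed the filter on low counts. Of those tested, 31 were called higher in petiole (petiole-high below), 19 were called higher in leaf (leaf-high) and 23 did not pass. That makes 68.5% called, beside 62.6% of all loci tested, so the share that differed is near the background. By direction, 42.5% of the HD-ZIP loci tested were higher in petiole (background 31.5%) and 26.0% were higher in leaf (background 31.1%). The median log2 fold change was 0.30 in the family and 0.01 over all loci. At least a 2-fold difference was called for 35 of the 73 loci, 22 petiole-high and 13 leaf-high, beside 10852 of all 31473 loci tested (34.5%). The libraries of the tissues did not overlap for 59 of the 73, beside 71.3% of all loci. On the deposited FPKM (limma on log2(FPKM + 1)) 43 loci were petiole-high and 10 leaf-high. Of all 31719 loci tested on that scale, 18352 were petiole-high and 5004 leaf-high. The median there was 0.45 in the family and 0.47 over all loci, so the family median did not exceed it. On log2(FPKM + 0.1) these medians were 1.01 and 0.72. Later counts on the deposited FPKM are to be read beside these totals. The filter was passed through both tissues by 62 loci (28 petiole-high, 17 leaf-high). Through petiole alone 6 loci passed, under the names ATHB-4-like, ATHB-54, ATHB-X, HAT7-like, HDG8-like and HDG12-like, and through leaf alone 3, namely ATHB-7 BraA04g032230.3C, ATHB-21 and ATHB-21-like. A difference in these 9 was partly built in by the filter.

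**Figure D1:**
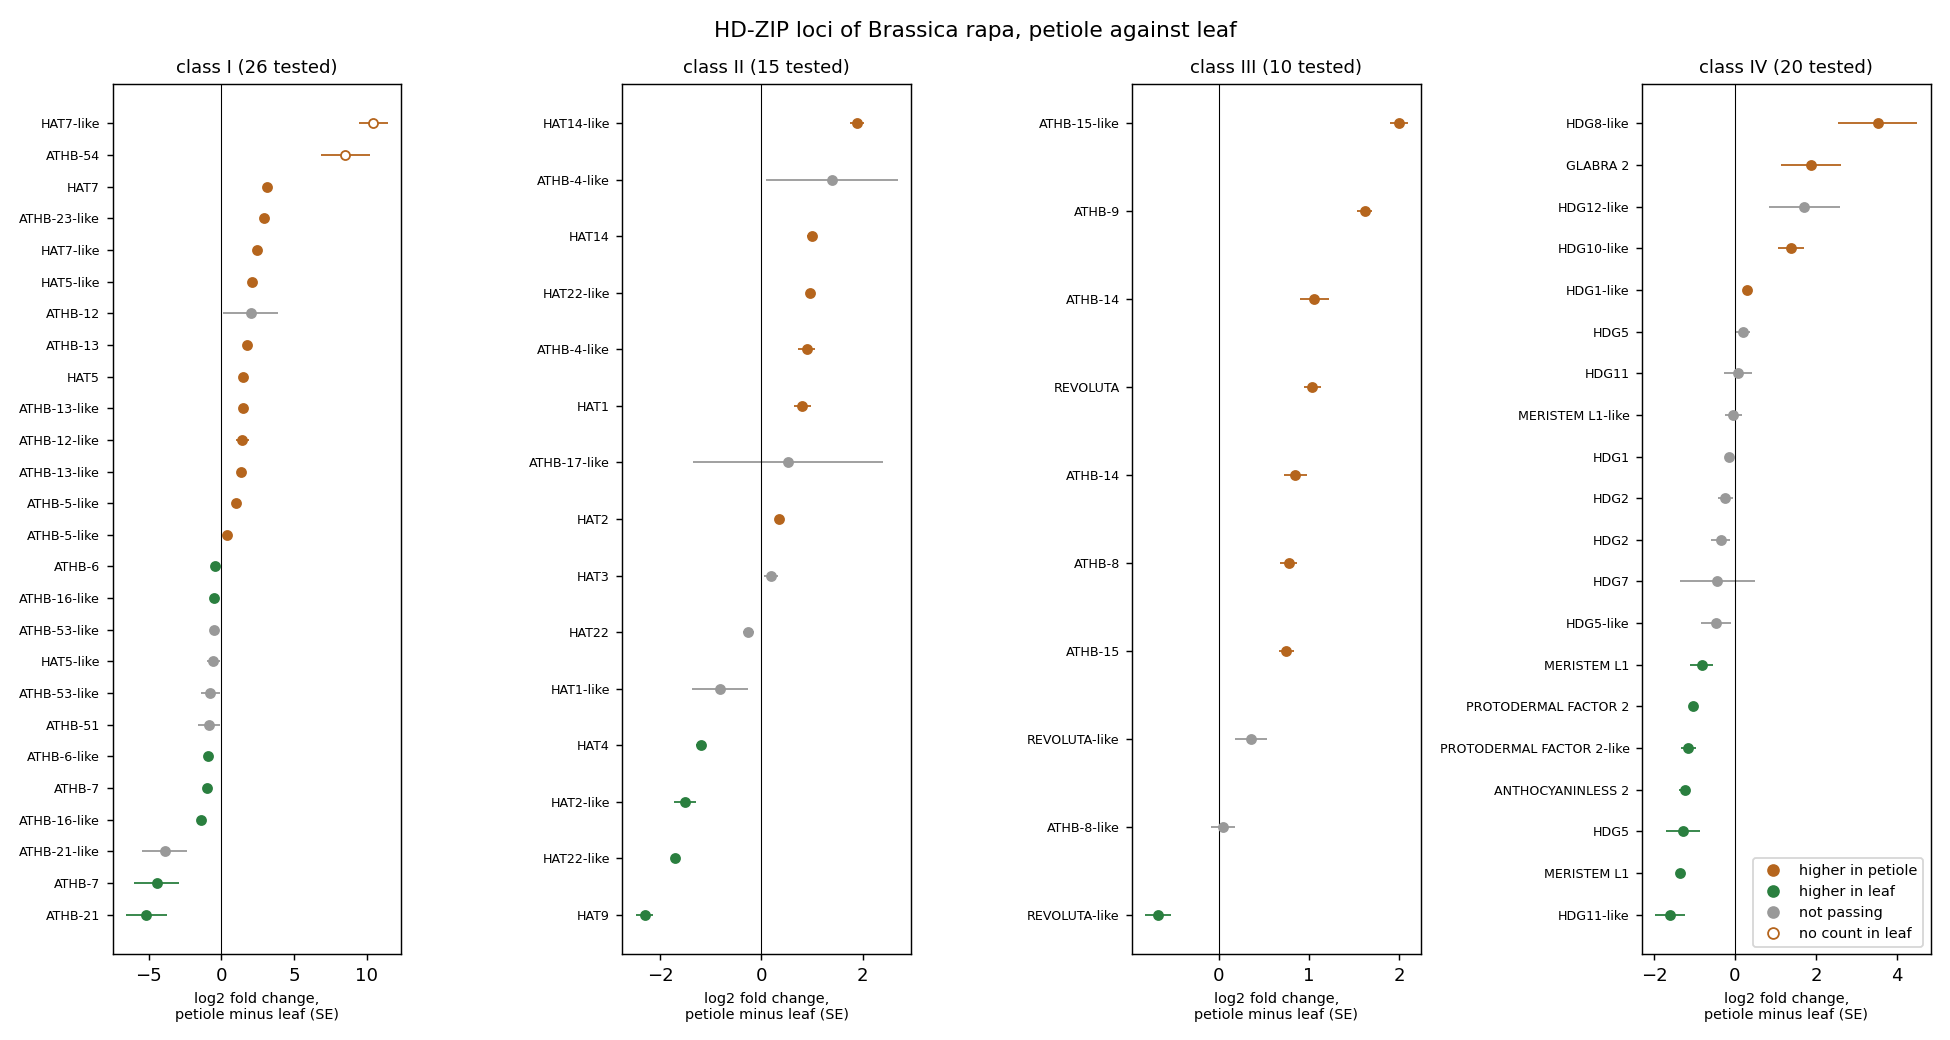
Log2 fold change, petiole minus leaf, with its SE for the tested HD-ZIP loci of classes I to IV, 1 row per locus, coloured by the call at an adjusted p of 0.05; open points had no count in leaf, where the fitted value is no measure of size. Class III lies to the right of 0 for 9 of its 10 loci, while class IV has 7 loci called to the left and 4 to the right; the x axes differ in range.

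Class III was the class with the largest share of loci higher in petiole. Of 11 loci, 10 were tested, and 7 were petiole-high, 1 was leaf-high and 2 did not pass. Over all loci tested, 31.5% were petiole-high and 31.1% leaf-high, which makes 62.6% called. The median log2 fold change of the class was 0.82. The summed level of the class was 136, 156 and 170.1 CPM in the leaf libraries and 294, 319 and 309 CPM in the petiole libraries. The summed level of petiole was thus 2.00 times that of leaf, and the libraries did not overlap. The class made up 7.62% ± 0.693 of the summed FPKM of the family in leaf and 16.2% ± 0.889 in petiole (SD over 3 libraries per tissue), a ratio within each library that does not depend on the scaling between libraries.

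ATHB-9, known as PHAVOLUTA, acts with ATHB-14 (PHABULOSA) and REVOLUTA in adaxial identity. The ATHB-9 locus BraA09g034560.3C (chromosome A09, 27178071 to 27182489) read 24, 26.3 and 30.1 CPM in the leaf libraries and 78.3, 83.1 and 84.9 CPM in the petiole libraries. Every petiole library stood above every leaf library, with a log2 fold change of 1.62 ± 0.081 (SE, edgeR adjusted p = 3.63e-08). It was the HD-ZIP III locus with the most FPKM in petiole, at 29.9 ± 1.11 (SD, n = 3). Both loci annotated as ATHB-14 moved the same way. BraA04g024760.3C had 14.1, 16.2 and 20 CPM in leaf and 29.4, 33.2 and 27.9 CPM in petiole (0.85 ± 0.127, edgeR adjusted p = 0.00023). The other, BraA05g010360.3C, had 5.53, 5.31 and 8.04 CPM in leaf and 13, 13.8 and 12.5 CPM in petiole (1.06 ± 0.161, edgeR adjusted p = 0.000205). In both, leaf replicate 3 was the highest leaf library and still lay below all petiole libraries.

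ATHB-15, known as CORONA, and ATHB-8 are class III factors of vascular tissue, ATHB-8 marking procambium cells. The ATHB-15-like locus BraA08g002260.3C (chromosome A08, 1609153 to 1612837) showed the largest difference of the class, from 8.5, 8.8 and 10.1 CPM in leaf to 33.8, 39.1 and 36.6 CPM in petiole. The log2 fold change was 2.00 ± 0.0954 (SE, edgeR adjusted p = 2.47e-08). Its copy BraA06g002210.3C (chromosome A06, 1326278 to 1330911) was the class III locus with the most FPKM in leaf (7.52 ± 0.918) and went from 35.8, 42.4 and 45.3 CPM to 66.5, 73.5 and 67.2 CPM, a log2 fold change of 0.75 ± 0.0846 (edgeR adjusted p = 2.62e-05). Both copies were higher in petiole, by unequal amounts. The log2 ratio of BraA08g002260.3C to BraA06g002210.3C lay between -2.26 and -2.06 in leaf and between -0.98 and -0.88 in petiole. For ATHB-8, BraA01g005160.3C had 13.5, 14.6 and 16 CPM in leaf and 23, 26.5 and 26.4 CPM in petiole (0.78 ± 0.0951, edgeR adjusted p = 3.76e-05). The ATHB-8-like locus BraA08g016820.3C had 11.1, 15 and 15.7 CPM in leaf and 13.6, 14.4 and 15.3 CPM in petiole, with overlapping libraries (0.05 ± 0.132, edgeR adjusted p = 0.751).

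REVOLUTA, which acts in adaxial identity and in the initiation of lateral meristems, divided among its copies. The REVOLUTA locus BraA10g018460.3C read 12.1, 14.3 and 12.8 CPM in leaf and 25.4, 25.8 and 29.5 CPM in petiole (1.04 ± 0.0962, edgeR adjusted p = 4.47e-06). The REVOLUTA-like locus BraA02g010200.3C went the other way, from 8.51, 8.66 and 8.74 CPM in leaf to 6.1, 5.62 and 4.58 CPM in petiole (-0.67 ± 0.14, edgeR adjusted p = 0.00186), a difference that on the deposited FPKM was 0.04 and did not pass (limma adjusted p = 0.749). A REVOLUTA-like locus at a lower level, BraA06g021080.3C, had 3.13, 4.04 and 3.28 CPM in leaf and 4.95, 4.22 and 4.26 CPM in petiole (0.36 ± 0.178, edgeR adjusted p = 0.101). The other REVOLUTA locus, BraA09g014760.3C, had no count in any library.

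**Figure D2:**
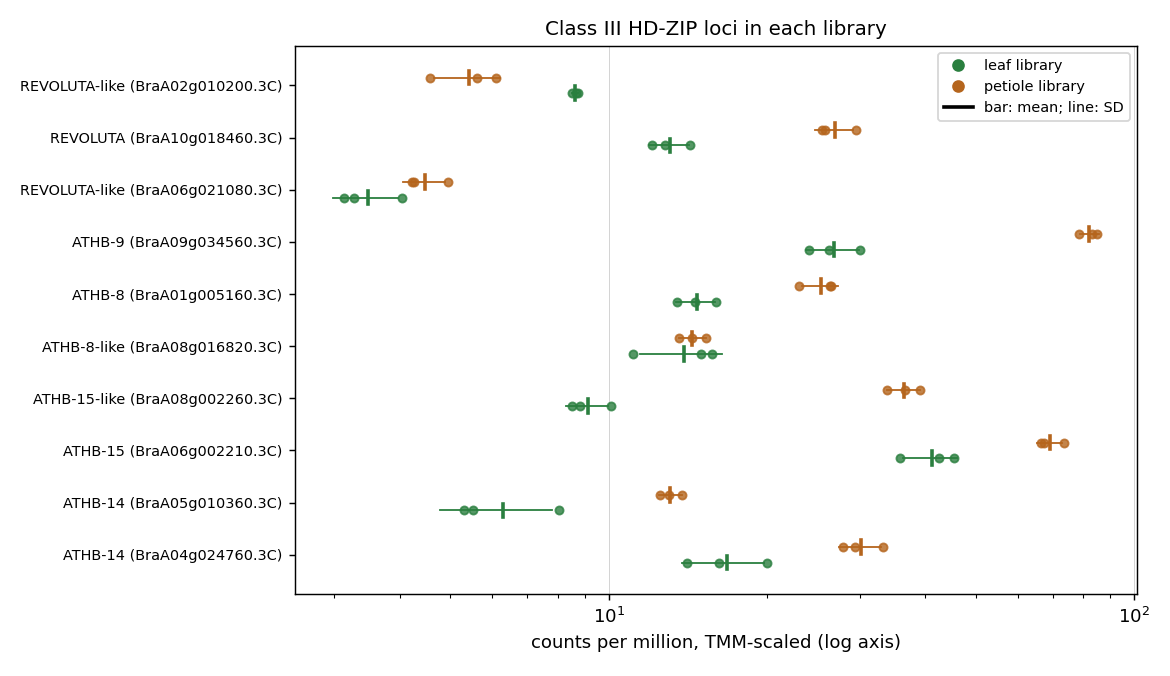
CPM (log axis) of the 10 class III loci with counts, 1 point per library, with the mean as a bar and the SD as a line for 3 leaf and 3 petiole libraries. The petiole points of ATHB-9 and ATHB-15-like lie farthest to the right of their leaf points, the ATHB-8-like points overlap, and the REVOLUTA-like locus BraA02g010200.3C is lower in petiole.

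Markers of xylem and secondary wall moved with class III. Of 23 tested marker loci, 14 were petiole-high and 1 was leaf-high (median 1.31), and their summed level was 83.5 to 88.5 CPM in leaf against 211 to 246 CPM in petiole. Of 29 matched xylem loci, 6 had no count in leaf and 4 had none in petiole. Phloem markers went the other way, with 12 of 22 tested loci leaf-high and 5 petiole-high (median -0.74) and a summed level of 814 to 819 CPM in leaf against 303 to 312 CPM in petiole. On the deposited FPKM the phloem list stood at 8 higher in leaf and 7 higher in petiole. The part of these tissues in the class III difference was not tested.

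LITTLE ZIPPER proteins are small proteins that dimerise with class III factors and keep them from binding DNA, and class III factors activate their genes in Arabidopsis. Of 7 LITTLE ZIPPER loci tested, 2 were petiole-high, 2 were leaf-high and 3 did not pass. The LITTLE ZIPPER 1 locus MSTRG.12919 had 1.25, 0.896 and 0.543 CPM in leaf and 2.91, 2.94 and 2.77 CPM in petiole (1.68 ± 0.319, edgeR adjusted p = 0.000935). Both LITTLE ZIPPER 2-like loci were higher in leaf, MSTRG.10447 at 3.88, 3.55 and 3.37 CPM in leaf against 0.51, 0.648 and 0.501 CPM in petiole (-2.70 ± 0.249, edgeR adjusted p = 4.32e-06). The other of them, MSTRG.20212, had 1.32, 1.97 and 1.43 CPM in leaf and 0.291, 0.486 and 0.501 CPM in petiole (-1.88 ± 0.404, edgeR adjusted p = 0.00209). The remaining locus called, BraA07g020900.3C, is LITTLE ZIPPER 3-like, with no count in leaf and 0.132, 0.176 and 0.127 CPM in petiole, a level near the floor. The whole list summed to 5.79 to 6.84 CPM in leaf against 4.08 to 4.94 CPM in petiole.

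Partners of class III in leaf polarity, a list of KANADI, YABBY and ARF3 or ARF4 genes, held 5 petiole-high and 4 leaf-high loci among 17 tested, with a median of 0.30. On the deposited FPKM these counts were 13 and 2, and without leaf replicate 3 they were 3 and 3. Without petiole replicate 1 the median was 0.17. KANADI factors set the lower (abaxial) side in opposition to class III. The KAN2 loci MSTRG.14014 (4.85 ± 0.764 CPM in leaf, 2.86 ± 0.436 CPM in petiole, SD, n = 3 each) and MSTRG.26299 (3.21 ± 0.954 CPM and 0.772 ± 0.198 CPM) were higher in leaf. A KAN1-like locus, MSTRG.30157, was higher in petiole (1.97 ± 0.368 CPM and 5 ± 0.172 CPM), as was the ARF4 locus MSTRG.29785 (21.9 ± 1.04 CPM and 29.9 ± 3.1 CPM). Of the most abundant loci of the list, a YABBY2 locus, MSTRG.15819, was higher in leaf (39.8 ± 0.718 CPM and 25.7 ± 3.32 CPM). A YABBY5 locus, MSTRG.7820, was called higher in petiole, with overlapping libraries (27 ± 1.73 CPM and 31 ± 1.81 CPM, log2 fold change 0.20, edgeR adjusted p = 0.0437). YABBY2 copies differed in direction, since MSTRG.23856 (12.2 ± 0.611 CPM and 24.1 ± 1.66 CPM) and MSTRG.28477 (6.85 ± 0.532 CPM and 8.76 ± 0.695 CPM) were higher in petiole.

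Class II held 16 loci, of which 15 were tested, 6 petiole-high, 4 leaf-high and 5 not passing, with a median log2 fold change of 0.34. The share called, 66.7%, was near the 62.6% of all loci tested. Its summed level was 196, 204 and 204 CPM in the leaf libraries and 182, 171 and 186 CPM in the petiole libraries. The loci with the most FPKM moved in opposite directions. HAT22, known in Arabidopsis as ABIG1, acts in the growth arrest and leaf yellowing brought on by drought. The HAT22-like locus BraA03g061060.3C (chromosome A03, 32627144 to 32628369) led class II in leaf, at 25 ± 0.639 FPKM (SD, n = 3), and had 59.8, 60.6 and 58.5 CPM in leaf and 20.5, 17.1 and 17.5 CPM in petiole (-1.70 ± 0.0773, edgeR adjusted p = 1.71e-08). HAT2, an auxin-inducible factor, led class II in petiole, at 29.1 ± 1.2 FPKM. Its locus BraA06g041150.3C had 29.1, 30.4 and 31.3 CPM in leaf and 38.7, 36.5 and 39.7 CPM in petiole (0.34 ± 0.0635, edgeR adjusted p = 0.000878).

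HAT4, also named ATHB-2, is the class II factor of shade avoidance whose transcript rises rapidly in light poor in red. The HAT4 locus BraA01g019700.3C had 24.5, 29.7 and 28 CPM in leaf and 11.1, 12.8 and 12.1 CPM in petiole, and no petiole library reached the lowest leaf library (-1.19 ± 0.0972, edgeR adjusted p = 1.7e-06). HAT9, a close relative of HAT22, had the largest difference of the class at locus BraA04g016810.3C, from 6.27, 6.41 and 6.53 CPM in leaf to 1.13, 1.34 and 1.38 CPM in petiole (-2.31 ± 0.177, edgeR adjusted p = 1.01e-06). HAT3 and ATHB-4 act in shade avoidance and, with class III, on the adaxial side of the leaf. The HAT3 locus BraA09g050200.3C had 6.57, 6.74 and 7.82 CPM in leaf and 8.04, 7.05 and 8.95 CPM in petiole, overlapping (0.19 ± 0.138, edgeR adjusted p = 0.267). The ATHB-4-like locus BraA05g004730.3C was higher in petiole, with 2.57, 2.4 and 2.52 CPM in leaf and 4.23, 4.72 and 4.94 CPM there (0.89 ± 0.173, edgeR adjusted p = 0.00109). HAT1, of the same group, was higher in petiole at BraA01g019200.3C (3.93, 3.14 and 2.83 CPM in leaf, 6.23, 5.37 and 5.74 CPM in petiole, edgeR adjusted p = 0.00232). Its copy BraA03g047520.3C, HAT1-like, stood at 0.844, 0.896 and 0.815 CPM in leaf and 0.252, 0.803 and 0.396 CPM in petiole and did not pass (edgeR adjusted p = 0.222).

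Both HAT14 loci were higher in petiole. BraA10g029400.3C had 11.1, 13.8 and 12.4 CPM in leaf and 25.8, 22.8 and 25.6 CPM in petiole (1.00 ± 0.101, edgeR adjusted p = 9.42e-06). The HAT14-like locus BraA03g002660.3C had 3.84, 3.41 and 3.17 CPM and 12.5, 14.2 and 11.6 CPM (1.88 ± 0.137, edgeR adjusted p = 6.89e-07). It touches by 2 bases a trichome birefringence-like gene on the other strand that was itself higher in petiole, at 18.1 CPM in leaf against 102 CPM in petiole. The ATHB-17-like loci, whose Arabidopsis relative acts in abscisic acid response, were near or at 0. A second ATHB-4-like locus, BraA04g030890.3C, ranged from 0 to 0.317 CPM in leaf and from 0.192 to 0.531 CPM in petiole and did not pass (edgeR adjusted p = 0.378).

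Genes of shade and auxin response, which work with class II, were mostly higher in leaf. Of 14 tested loci 8 were higher in leaf, 1 was higher in petiole and 5 did not pass (median -0.99), and on the deposited FPKM the counts were 7 higher in leaf and 5 higher in petiole. PIF factors bind active phytochrome and switch on shade genes, HAT4 among them. The PIF5 locus MSTRG.27406 had 80 ± 2.04 CPM in leaf against 38.2 ± 1.76 CPM in petiole, and the PIF4-like locus MSTRG.7619 had 59.4 ± 2.28 CPM and 31.7 ± 1.17 CPM (SD over 3 libraries per tissue). YUCCA8, an enzyme of auxin synthesis, had 4.96 ± 0.508 CPM in leaf against 0.427 ± 0.266 CPM in petiole at MSTRG.668. Of the 29 matched loci, 12 had no count in leaf and 16 had none in petiole.

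Class I was the largest class and the most abundant. Of 37 loci, 26 were tested, and 13 were petiole-high, 7 were leaf-high and 6 did not pass, with a median log2 fold change of 0.70. That makes 50.0% higher in petiole and 26.9% higher in leaf, beside 31.5% and 31.1% of all loci tested. The class took 60.8% ± 0.865 of the summed FPKM of the family in leaf and 56.9% ± 1.20 in petiole (SD over 3 libraries per tissue). Its summed level was 496, 484 and 506 CPM in leaf and 496, 478 and 469.8 CPM in petiole, with overlapping libraries, while single loci moved in both directions. The loci named ATHB-6, ATHB-7 and ATHB-16 were higher in leaf, and those named ATHB-5, ATHB-13, ATHB-23, HAT5 and HAT7 were higher in petiole, each name with the exceptions given below.

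ATHB-6 restrains abscisic acid responses and ATHB-16 restrains leaf expansion. The ATHB-16-like locus BraA08g022000.3C (chromosome A08, 16584501 to 16585505) had the most FPKM of the whole family in leaf, at 62.3 ± 3.8 (SD, n = 3). Its level was 90.6, 86 and 98.1 CPM in leaf and 37.2, 31.8 and 34.1 CPM in petiole (-1.41 ± 0.0714, edgeR adjusted p = 3.84e-08). The other ATHB-16-like locus, BraA01g000990.3C, had 96.3 to 103 CPM in the leaf libraries and 74.9, 71.2 and 67.4 CPM in petiole (-0.49 ± 0.0521, edgeR adjusted p = 1.44e-05), but 0.25 on the deposited FPKM, the opposite sign (limma adjusted p = 0.00259). Per length, BraA08g022000.3C was the higher copy in leaf (62.3 ± 3.8 against 46.5 ± 1.01 FPKM) and the lower in petiole (39 ± 3.18 against 55.4 ± 3.17 FPKM). The ATHB-6 locus BraA09g054870.3C had 93.6, 93.9 and 96.8 CPM in leaf and 71.7, 67.7 and 70.1 CPM in petiole (-0.44 ± 0.0451, edgeR adjusted p = 9.79e-06), and it too changed sign on the deposited FPKM (0.29, limma adjusted p = 0.000275). The ATHB-6-like locus BraA04g016410.3C had 53.4, 43.6 and 52 CPM in leaf and 28.7, 25.4 and 24.8 CPM in petiole (-0.92 ± 0.0894, edgeR adjusted p = 6.87e-06) and kept its sign on the deposited FPKM without passing (-0.17, limma adjusted p = 0.11).

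ATHB-7 and ATHB-12 are induced by drought and abscisic acid. The ATHB-7 locus BraA05g001160.3C had 5.97, 7.01 and 5.23 CPM in leaf and 2.73, 2.88 and 3.61 CPM in petiole (-0.98 ± 0.184, edgeR adjusted p = 0.000877), a call not kept on the deposited FPKM (-0.18, limma adjusted p = 0.221). A second ATHB-7 locus, BraA04g032230.3C, was also higher in leaf at very low levels, with 0.165 to 0.597 CPM in leaf against 0 to 0.0422 CPM in petiole (edgeR adjusted p = 0.0273), a call lost without leaf replicate 1, leaf replicate 2, petiole replicate 1 or petiole replicate 3. This locus passed the filter through leaf alone, and its call was also lost in edgeR with no filter and with counts divided by the units per fragment. On the deposited FPKM the call was lost with limma on log2(FPKM + 1). It was kept on log2(FPKM + 0.1) and on log2(FPKM + 1) without a filter. The ATHB-12-like locus BraA04g000960.3C, at 0.549, 0.28 and 0.427 CPM in leaf and 1.31, 1.01 and 1.12 CPM in petiole, was called higher in petiole (edgeR adjusted p = 0.0162), a call lost without petiole replicate 1. It lies wholly under a locus on the other strand that had 479.7 CPM in leaf against 279 CPM in petiole. No source here says that strand was used in counting.

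ATHB-5 promotes abscisic acid responses in seedlings. Its ATHB-5-like locus BraA02g045120.3C (chromosome A02, 30994093 to 30996214) had 90, 89 and 96.5 CPM in leaf and 123, 122 and 113 CPM in petiole (0.38 ± 0.0519, edgeR adjusted p = 9.84e-05), and in petiole it had 66.9 ± 3.56 FPKM, level with ATHB-6. The second ATHB-5-like locus, BraA06g028780.3C, had 23.4, 27.6 and 20.5 CPM in leaf and 46.2, 50.6 and 47.3 CPM in petiole (1.01 ± 0.101, edgeR adjusted p = 1e-05). ATHB-13 acts in the shape of cotyledons and leaves, and ATHB-23 is a close relative. All 3 loci named ATHB-13 were higher in petiole. BraA07g034650.3C had 5.92, 7.88 and 6.61 CPM in leaf and 23.8, 23.1 and 22.2 CPM in petiole (1.76 ± 0.116, edgeR adjusted p = 3.16e-07). The ATHB-13-like loci BraA02g019420.3C and BraA07g030210.3C had log2 fold changes of 1.47 ± 0.116 and 1.32 ± 0.166 (SE). The ATHB-23-like locus BraA08g026050.3C had 0.746, 0.998 and 0.63 CPM in leaf and 5.58, 5.94 and 6.88 CPM in petiole (2.95 ± 0.23, edgeR adjusted p = 1.15e-06).

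HAT5, also named ATHB-1, acts in growth of the hypocotyl and the leaf, and HAT7, named ATHB-3, is its relative. The HAT5 locus BraA05g040600.3C had 9.04, 11.5 and 10.8 CPM in leaf and 30, 29.5 and 27.8 CPM in petiole (1.48 ± 0.101, edgeR adjusted p = 4.06e-07). The HAT5-like locus BraA01g044820.3C had 1.54, 1.97 and 1.62 CPM in leaf and 6.88, 7.25 and 7.51 CPM in petiole (2.08 ± 0.17, edgeR adjusted p = 1.76e-06). Another copy, HAT5-like BraA07g020090.3C, overlapped between the tissues, at 1.96, 1.05 and 1.21 CPM in leaf and 1.45, 0.957 and 0.479 CPM in petiole (edgeR adjusted p = 0.315). All 3 HAT7 loci were higher in petiole. The HAT7 locus BraA02g005880.3C had 0.716, 0.709 and 0.427 CPM in leaf and 6.36, 4.79 and 5.53 CPM in petiole (3.17 ± 0.26, edgeR adjusted p = 1.74e-06). HAT7-like BraA03g006690.3C had no count in any leaf library and 1.84, 1.5 and 0.935 CPM in petiole, which is at least 12.4-fold higher against a floor of 3 fragments per library. That locus passed the filter through petiole alone. HAT7-like BraA10g024200.3C (MSTRG.30242) had 0.844, 1.07 and 1.27 CPM in leaf and 5.56, 6.11 and 5.68 CPM in petiole (2.44 ± 0.211, edgeR adjusted p = 2.59e-06). It shares 1649 bases with an undescribed locus on the other strand that had 3.37 CPM in leaf against 11.1 CPM in petiole.

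**Figure D3:**
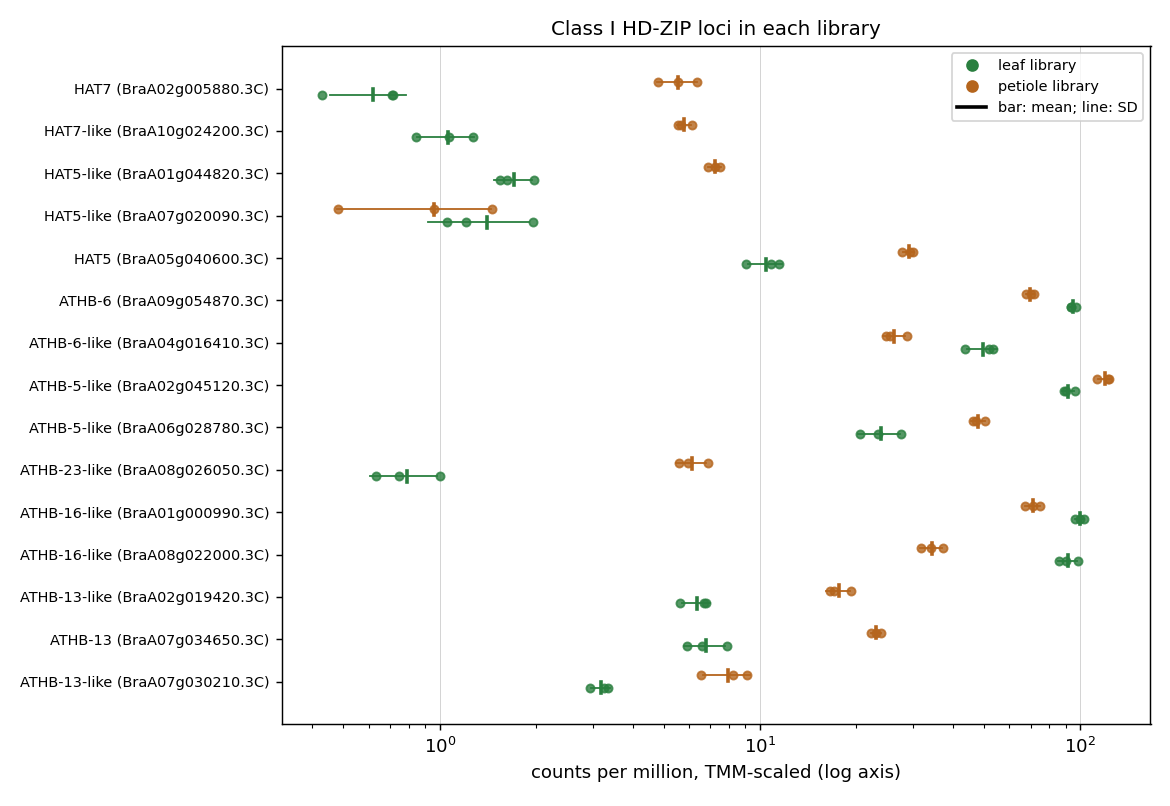
CPM (log axis) of class I loci named ATHB-5, ATHB-6, ATHB-13, ATHB-16, ATHB-23, HAT5 and HAT7 with counts in both tissues, 1 point per library, with the mean as a bar and the SD as a line (n = 3 per tissue). Petiole points lie to the right for the ATHB-5, ATHB-13, ATHB-23 and HAT7 names and to the left for ATHB-6 and ATHB-16, and the HAT5-like locus BraA07g020090.3C overlaps.

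Class I loci of bud and leaf margin control were at low levels. ATHB-21, ATHB-40 and ATHB-53 restrain axillary bud growth. The ATHB-21 locus BraA07g002160.3C had 0.481, 0.317 and 0.582 CPM in leaf, and 1 petiole library had 0.0352 CPM while the others had none (edgeR adjusted p = 0.00835). It passed the filter through leaf alone, and the call was lost with counts divided by the units per fragment. ATHB-21-like BraA09g011460.3C showed 0.353, 1.5 and 0.698 CPM in leaf and 0.172 CPM in 1 petiole library, and did not pass (edgeR adjusted p = 0.0557). The ATHB-53-like locus BraA09g009440.3C had 2.39, 2.24 and 2.26 CPM in leaf and 1.58, 1.22 and 2.1 CPM in petiole (edgeR adjusted p = 0.132), and BraA02g045660.3C had 1.16, 1.07 and 0.184 CPM and 0.517, 0.373 and 0.531 CPM (edgeR adjusted p = 0.349). ATHB-51, also named LMI1, shapes leaf margins and stipules and acts in floral identity. Of its 4 loci only BraA10g032450.3C was tested, at 0.392, 0.541 and 0.359 CPM in leaf and 0.305, 0.218 and 0.194 CPM in petiole (edgeR adjusted p = 0.345). The ATHB-54 locus BraA09g038920.3C had no count in leaf and 0.252, 0.275 and 0.598 CPM in petiole, which is at least 3.25-fold higher. This locus passed the filter through petiole alone, and its petiole-high call was lost with counts divided by the units per fragment.

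Genes of abscisic acid perception, the hormone pathway tied to several class I factors, were mostly higher in leaf. Of 27 receptor and clade A phosphatase loci tested, 19 were higher in leaf, 2 were higher in petiole and 6 did not pass (median -1.08), with a summed level of 679 to 715 CPM in leaf against 315 to 339 CPM in petiole. On the deposited FPKM, 14 were higher in leaf and 8 higher in petiole. The protein phosphatase 2C 37 locus MSTRG.14845, a brake on abscisic acid signalling, had 217 ± 13.2 CPM in leaf against 104 ± 6.49 CPM in petiole (SD over 3 libraries per tissue). The receptor locus MSTRG.8144, PYL7-like, had 58.1 ± 1.31 CPM and 16.7 ± 1.57 CPM. The loci higher in petiole were protein phosphatase 2C 3, MSTRG.29082 (1.18 ± 0.0551 CPM in leaf, 8.06 ± 0.872 CPM in petiole), and the receptor PYL9, MSTRG.28734 (1.07 ± 0.408 CPM and 2.98 ± 0.24 CPM).

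Class IV factors split between the tissues. Of 30 loci, 20 were tested, and 7 were higher in leaf, 4 were higher in petiole and 9 did not pass, with a median log2 fold change of -0.30. The share called was 55.0%, below the 62.6% of all loci. The share higher in leaf, 35.0%, was near the background of 31.1%, and the 4 of 20 higher in petiole stood below the background of 31.5%. Its summed level was 163, 156 and 159.7 CPM in leaf and 103, 109 and 109.8 CPM in petiole, so that all petiole libraries lay below all leaf libraries. On the deposited FPKM, 8 of 19 tested class IV loci were petiole-high and 3 were leaf-high. On that scale 18352 of all 31719 loci were petiole-high and 5004 were leaf-high. The petiole-high share of the class thus stayed below that of all loci, and its leaf-high share was near that of all loci. Its share of the summed FPKM of the family, taken within each library, was 8.06% ± 0.232 in leaf and 5.74% ± 0.284 in petiole (SD over 3 libraries per tissue).

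MERISTEM L1 and PROTODERMAL FACTOR 2 (PDF2) together specify the epidermis. The MERISTEM L1 locus BraA03g049720.3C (chromosome A03, 25421833 to 25427184) had the most FPKM of class IV in leaf, at 5.68 ± 0.283 (SD, n = 3), and had 27.2, 27.3 and 25.2 CPM in leaf and 9.08, 11.6 and 10.3 CPM in petiole (-1.36 ± 0.103, edgeR adjusted p = 9.16e-07). The PDF2 locus BraA09g025450.3C (chromosome A09, 17140393 to 17147906) had 27.6, 25.7 and 24.8 CPM in leaf and 13.1, 11.4 and 13.7 CPM in petiole (-1.03 ± 0.0943, edgeR adjusted p = 4.1e-06). PDF2-like BraA03g028330.3C had 25.6, 20.9 and 20.1 CPM in leaf and 7.9, 9.29 and 12.9 CPM in petiole (-1.15 ± 0.183, edgeR adjusted p = 0.000614), a difference that did not pass on the deposited FPKM (-0.33, limma adjusted p = 0.0757). In these loci no petiole library reached the lowest leaf library. The lower MERISTEM L1 locus BraA01g012480.3C had 2.2, 2.62 and 1.91 CPM in leaf and 1.56, 1.26 and 0.995 CPM in petiole (-0.82 ± 0.28, edgeR adjusted p = 0.0263), a call lost without leaf replicate 1, leaf replicate 2, petiole replicate 2 or petiole replicate 3. It was also lost on the deposited FPKM (-0.03, limma adjusted p = 0.823) and on FPKM rescaled to the TMM library sizes. MERISTEM L1-like BraA08g014720.3C (MSTRG.22532) overlapped, at 3.99, 4.52 and 4.19 CPM in leaf and 3.13, 5.15 and 4.06 CPM in petiole (edgeR adjusted p = 0.87), and shares 1508 bases with each of a pair of undescribed loci. The first PDF2 locus shares 1499 bases with a polyadenylation factor gene on the other strand, at 57.6 CPM in leaf against 41.8 CPM in petiole. ANTHOCYANINLESS 2, which acts in anthocyanin build-up under the epidermis and in cuticle formation, had 17.8, 16.9 and 23.4 CPM in leaf and 8.13, 8.57 and 7.85 CPM in petiole at BraA03g029970.3C (-1.24 ± 0.131, edgeR adjusted p = 1.25e-05).

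The HDG loci mostly did not pass. HDG1, which acts in cuticle formation, had 22.1, 23 and 23 CPM in leaf and 21.4, 21.2 and 18.7 CPM in petiole at BraA07g024490.3C (-0.15 ± 0.0806, edgeR adjusted p = 0.123), a value that on the deposited FPKM was 0.49 and passed (limma adjusted p = 0.000629). HDG1-like BraA05g005430.3C, the class IV locus with the most FPKM in petiole (7.36 ± 0.213), had 15.8, 17.4 and 16.6 CPM in leaf and 20.7, 20.4 and 19.8 CPM in petiole (0.30 ± 0.0798, edgeR adjusted p = 0.00809). HDG2 promotes stomatal and trichome development. Its loci BraA09g064580.3C (3.81 ± 0.468 CPM in leaf, 3.23 ± 0.243 CPM in petiole) and BraA10g003840.3C (3.49 ± 0.347 CPM and 2.74 ± 0.786 CPM) did not pass (edgeR adjusted p = 0.277 and 0.219). HDG5 BraA09g022380.3C overlapped between the tissues, at 4.69, 3.55 and 4.63 CPM in leaf and 4.65, 4.65 and 5.6 CPM in petiole (edgeR adjusted p = 0.319). The loci BraA06g041540.3C and BraA06g041550.3C, HDG5 and HDG5-like, are neighbours with 109 bases between them. They may be pieces of 1 gene. The first was called higher in leaf (1.6, 0.821 and 1.79 CPM against 0.563, 0.479 and 0.688 CPM, edgeR adjusted p = 0.0216), a call lost without leaf replicate 1, leaf replicate 3 or petiole replicate 2 and on the deposited FPKM (-0.24, limma adjusted p = 0.21). The second did not pass (1.46, 1.32 and 0.892 CPM against 0.676, 0.887 and 1.09 CPM, edgeR adjusted p = 0.305).

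GLABRA 2, which drives trichome growth in the shoot, was barely detected. Its locus BraA07g025490.3C had 0.186, 0.103 and 0.31 CPM in leaf and 0.318, 1.05 and 0.853 CPM in petiole (1.88 ± 0.734, edgeR adjusted p = 0.0453), and the call was lost without leaf replicate 1, leaf replicate 2, petiole replicate 2 or petiole replicate 3, and with no filter on low counts. HDG11 acts in trichome branching and drought tolerance. HDG11-like BraA07g028750.3C had 2.46, 1.88 and 2.89 CPM in leaf and 0.444, 0.964 and 0.972 CPM in petiole (-1.60 ± 0.364, edgeR adjusted p = 0.003), a call lost on the deposited FPKM (-0.32, limma adjusted p = 0.0614). HDG11 BraA07g037510.3C had 1.33, 1.79 and 1.27 CPM and 1.74, 1.97 and 0.905 CPM and did not pass (edgeR adjusted p = 0.873). The HDG8-like locus BraA02g008460.3C had 0.285, 0 and 0.126 CPM in leaf and 1.84, 1.69 and 1.23 CPM in petiole (3.53 ± 0.976, edgeR adjusted p = 0.0127), a call lost without leaf replicate 3, at a locus that passed the filter through petiole alone. HDG10-like BraA10g022670.3C was higher in petiole, at 0.814, 0.849 and 0.727 CPM in leaf and 1.4, 2.31 and 2.54 CPM in petiole (edgeR adjusted p = 0.00354). Of the others with counts, HDG7 BraA10g010580.3C stood at 0.196, 0.42 and 0.175 CPM in leaf and 0.351, 0.0845 and 0.15 CPM in petiole and HDG12-like BraA08g029000.3C at 0.118, 0.056 and 0.33 CPM and 0.431, 0.873 and 0.352 CPM, neither passing (edgeR adjusted p = 0.711 and 0.114). HDG4 BraA08g012560.3C and HDG2-like BraA04g023220.3C had a mean under 0.1 CPM in each tissue and were not tested.

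**Figure D4:**
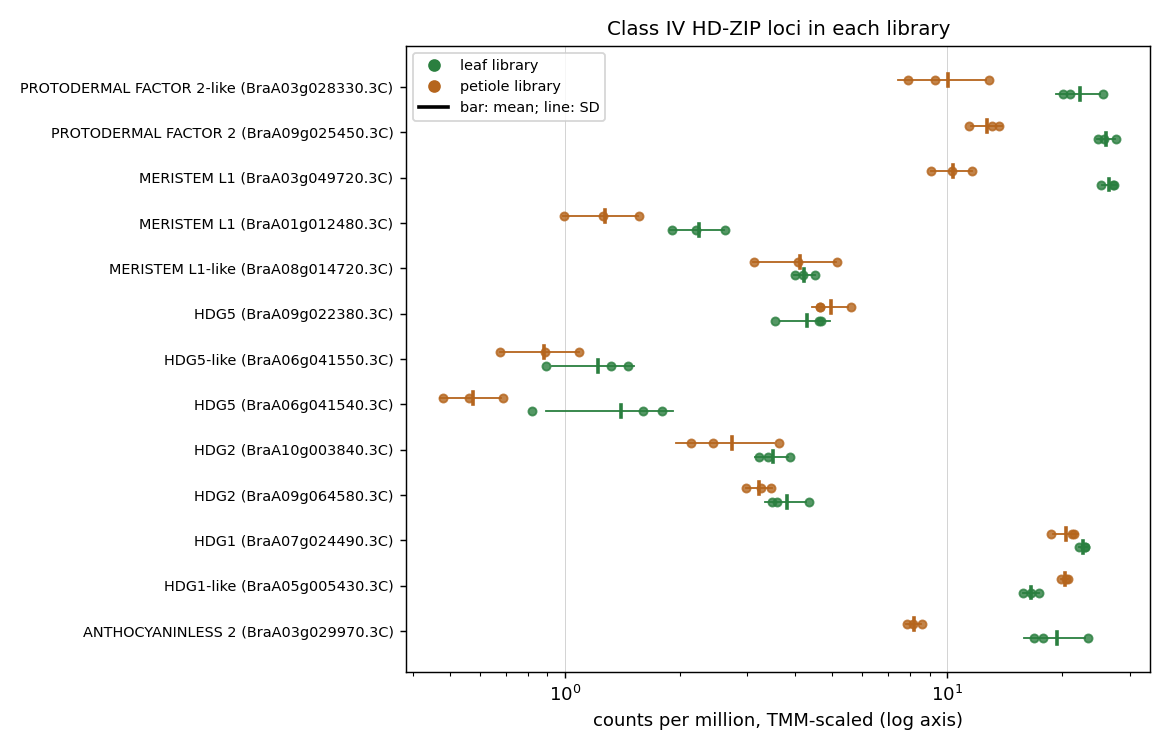
CPM (log axis) of tested class IV loci named ANTHOCYANINLESS 2, HDG1, HDG2, HDG5, MERISTEM L1 and PROTODERMAL FACTOR 2, 1 point per library, with the mean as a bar and the SD as a line (n = 3 per tissue). The PROTODERMAL FACTOR 2, ANTHOCYANINLESS 2 and 2 of the 3 MERISTEM L1 loci lie lower in petiole than in leaf without overlap, and HDG1-like lies higher.

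Epidermis markers outside the family did not move as 1 group. Of 6 tested loci, 4 were petiole-high and 2 were leaf-high (median 0.92), with a summed level of 87.1 to 90 CPM in leaf against 103 to 107 CPM in petiole. PROTODERMAL FACTOR 1 is a cell wall protein gene of the shoot surface whose promoter is bound by MERISTEM L1 and PDF2 in Arabidopsis. Its 3 loci were higher in petiole, MSTRG.12765 at 1.42, 1.47 and 1.61 CPM in leaf and 44.2, 44.1 and 45.8 CPM in petiole (4.89 ± 0.0898, edgeR adjusted p = 2.66e-11) and MSTRG.12374 at 15.7, 15.5 and 14.4 CPM and 21.2, 23.3 and 24.6 CPM (0.60 ± 0.0871, edgeR adjusted p = 0.000146). The last of them, MSTRG.18938, had 3.36 ± 0.637 CPM in leaf against 7.9 ± 0.649 CPM in petiole (SD over 3 libraries per tissue). The wax enzyme 3-ketoacyl-CoA synthase 6 was lower in petiole at MSTRG.20676 (36.6, 33.7 and 36.5 CPM against 9.04, 8.48 and 7.08 CPM, edgeR adjusted p = 2.73e-08). ECERIFERUM 1, MSTRG.1130, was higher in petiole (0.353 ± 0.178 CPM in leaf, 3.15 ± 0.363 CPM in petiole, edgeR adjusted p = 4.9e-05). The remaining tested locus, 3-ketoacyl-CoA synthase 10-like MSTRG.27680, was higher in leaf (32.2 ± 0.932 CPM and 17.9 ± 0.978 CPM). The part of epidermal cell number in the class IV difference was not tested.

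Wax and cutin genes, a wider list, had 20 of 39 tested loci leaf-high and 11 petiole-high (median -0.59), and 13 and 17 on the deposited FPKM. The 3-ketoacyl-CoA synthase 4 locus MSTRG.27942 had 16.2 ± 0.845 CPM in leaf against 69.8 ± 1.27 CPM in petiole, and the 3-ketoacyl-CoA synthase 19 locus MSTRG.18573 had 78.9 ± 0.665 CPM and 72.4 ± 3.12 CPM (SD over 3 libraries per tissue). Regulators of epidermis and trichomes held 4 petiole-high and 1 leaf-high among 9 tested, a list whose search words also matched GLABROUS1 enhancer-binding proteins. The counts were 2 and 2 without petiole replicate 3, and 7 and 1 on the deposited FPKM. The WD-repeat protein TRANSPARENT TESTA GLABRA 1, which acts upstream of GLABRA 2 in trichomes, had 23.8 ± 2.78 CPM in leaf against 29.7 ± 2.05 CPM in petiole at MSTRG.17658 (edgeR adjusted p = 0.0132). The locus higher in leaf was a GLABROUS1 enhancer-binding protein-like gene, MSTRG.1185, at 59.7 ± 1.59 CPM and 50.9 ± 2 CPM.

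*Brassica rapa* carries several copies of many genes that are single in Arabidopsis, and the 96 loci fell under 46 Arabidopsis names. For 26 names, 2 or more loci were tested. In 10 of these all tested copies were called in 1 direction, 6 names higher in petiole and 4 higher in leaf. Each of these 4 names, ATHB-6, ATHB-7, ATHB-16 and PDF2, had a copy that lost its call or changed sign on the deposited FPKM. HAT7, 1 of the 6 names, and ATHB-7 each include a copy that passed the filter through the higher tissue alone. The direction of those copies, HAT7-like BraA03g006690.3C and ATHB-7 BraA04g032230.3C, was partly built in. Over all loci tested 62.6% were called, and the same tally was not made for other gene names. In 3 names, HAT2, HAT22 and REVOLUTA, copies were called in opposite directions, although the call of REVOLUTA-like MSTRG.3776 was lost on the deposited FPKM, and the other 13 names included a copy that did not pass. Copies with near-identical sequence may share reads in the authors' counting, which is not described in the sources used here.

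Of HAT2, HAT22 and REVOLUTA, HAT22 showed the widest split in log2 fold change. HAT22-like BraA08g021670.3C had 12.6, 14 and 13.5 CPM in leaf and 24.8, 24.9 and 28.6 CPM in petiole (0.96 ± 0.0896, edgeR adjusted p = 4.66e-06), against the leaf-high copy BraA03g061060.3C described above. The log2 ratio of the first to the second lay between -2.23 and -2.1 in leaf and between 0.27 and 0.71 in petiole, with 0.1 CPM added to each. Per length, the first had 6.53 ± 0.401 FPKM in leaf and 21.2 ± 1.66 in petiole, and the second had 25 ± 0.639 and 12.8 ± 1.37 (SD, n = 3). The other copy, HAT22 BraA01g001200.3C, overlapped, at 30.2, 27.2 and 32.8 CPM in leaf and 26.2, 21.2 and 27.8 CPM in petiole (-0.26 ± 0.109, edgeR adjusted p = 0.0584). On the deposited FPKM that copy was at 0.45 and passed (limma adjusted p = 0.0048). HAT2-like BraA09g022670.3C had 4.36, 4.69 and 4.35 CPM in leaf and 1.78, 1.7 and 1.23 CPM in petiole (-1.51 ± 0.212, edgeR adjusted p = 0.000114). The log2 ratio of HAT2 BraA06g041150.3C to it was 2.67 to 2.82 in leaf and 4.35 to 4.91 in petiole. For REVOLUTA, the ratio of BraA10g018460.3C to BraA02g010200.3C was 0.51 to 0.72 in leaf and 2.04 to 2.66 in petiole. These ratios compare copies within a library, so scaling between libraries hardly enters them. An exact permutation test of 3 against 3 libraries cannot go below a two-sided p of 0.1, so they were not tested.

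**Figure D5:**
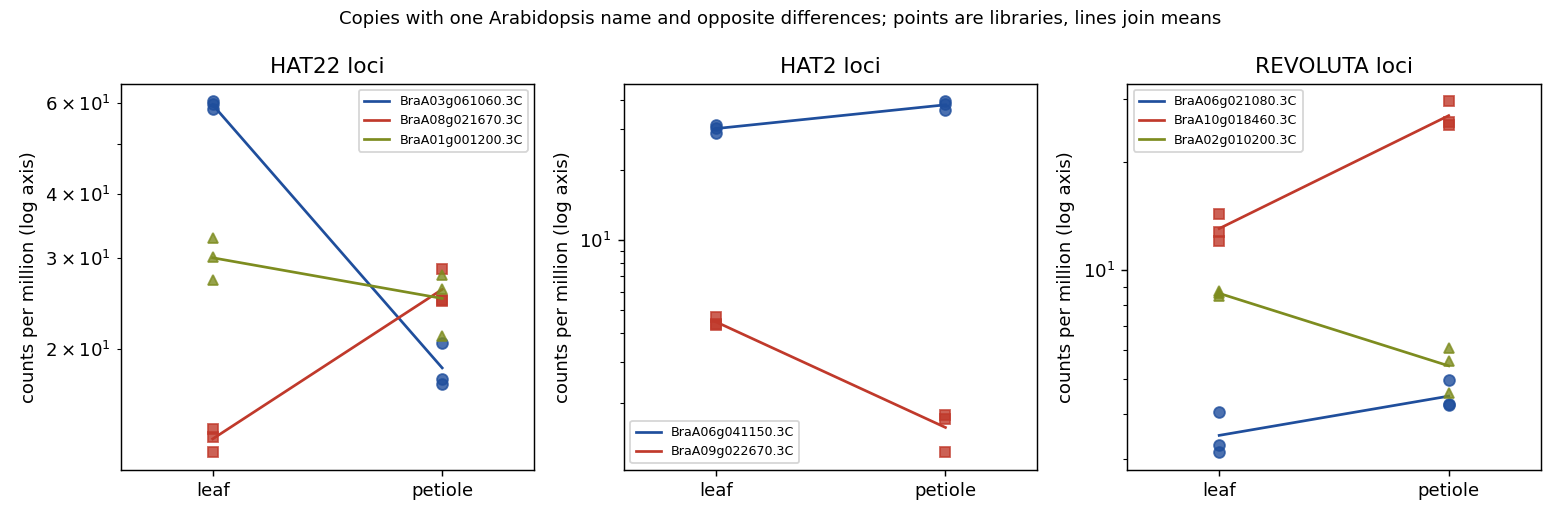
CPM (log axis) in leaf and petiole of the tested copies of HAT22, HAT2 and REVOLUTA, 1 point per library, with lines joining the tissue means (n = 3 each). The lines of HAT22 cross between the tissues, on a scale that is not per length, and in each panel at least 1 copy falls and 1 rises toward petiole.

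The order of levels within a tissue was led by class I. In leaf, ATHB-16-like BraA08g022000.3C (62.3 ± 3.8 FPKM), ATHB-6 BraA09g054870.3C (54.3 ± 1.04), ATHB-16-like BraA01g000990.3C (46.5 ± 1.01) and ATHB-5-like BraA02g045120.3C (30.9 ± 1.27) followed each other without overlap (SD, n = 3). In petiole, ATHB-5-like BraA02g045120.3C (66.9 ± 3.56 FPKM) and ATHB-6 BraA09g054870.3C (66.8 ± 2.03) overlapped at the top, followed by ATHB-16-like BraA01g000990.3C (55.4 ± 3.17) and BraA08g022000.3C (39 ± 3.18). ATHB-9 of class III came next in petiole and was not among the 12 highest in leaf. In all, 32 of the 96 loci reached a mean of 5 FPKM in either tissue, 14 of class I, 8 of class II, 7 of class III and 3 of class IV.

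The unplaced loci were both low. ATHB-X-like BraA02g020150.3C had 0.235, 0.756 and 0.291 CPM in leaf and 1.7, 1.38 and 1.1 CPM in petiole (edgeR adjusted p = 0.0146), a call lost without petiole replicate 1, and ATHB-X BraA07g035610.3C had 0, 0.131 and 0.213 CPM and 0.457, 0.634 and 0.553 CPM (edgeR adjusted p = 0.11). The loci with some counts that were not tested numbered 8, named ATHB-20, ATHB-40 (2 loci), ATHB-51, ATHB-52, ATHB-53, HDG2 and HDG4. The 15 loci with no count were 5 of class I (ATHB-22, ATHB-23, an ATHB-40-like and 2 ATHB-51 loci), 1 ATHB-17-like locus, 1 REVOLUTA locus and 8 of class IV named HDG2, HDG8, HDG9, HDG11 or HDG12. A count of 0 allows up to 3 fragments in a library, and this limit covers counting error only.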

How the data were processed

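Total RNA libraries depleted of rRNA were compared between 3 leaf and 3 petiole samples. The deposited table holds, per locus, whole-number estimated counts and FPKM made by the authors. A fragment adds about 3.7 units to an estimated count, judged from the values. No source used here gives the aligner, counter or plant build. Bowtie 0.12.2 and mm8 are listed in the submitters' processing notes, with no role. A mouse build, mm8 cannot be the build of these plant loci. All value columns mapped to samples. Assembled loci with an identifier but no gene name held 5.192 to 6.623% of the counts and were kept in the fit. The libraries are strand-specific per the labels' protocols; whether counting used strand is not given.

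Estimated counts were tested with edgeR 4.0.16 in R 4.3.3 (TMM, filterByExpr, robust quasi-likelihood fit, tissue alone, Benjamini-Hochberg adjustment, threshold 0.05), which was tested on simulated data. Alternatives used DESeq2 1.42.0, limma 3.58.1 on log2(FPKM + 1) or log2(FPKM + 0.1) with a mean of 0.1 FPKM as filter, other scaling and filters, a replicate block and leaving out each library. Limma fold changes on that scale understate low loci. Members, classes and gene lists were chosen with earlier results of these data known. Named loci were all of classes III and IV with a count, up to 6 per direction in the other classes by fold change with at least 1 FPKM, the highest by FPKM, 3 that did not pass, and 2 per gene list by FPKM. Every other locus named was chosen after its values were seen.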

Additional observations from a re-analysis of the deposited data

How the results depend on the processing

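The tissue counts moved by over 1.5 times on the deposited FPKM alone. With limma on log2(FPKM + 1), log2(FPKM + 0.1) and log2(FPKM + 1) without a filter, the family had 10, 11 and 11 loci higher in leaf, class I had 3, 4 and 4, class III had 0 in each, and class IV had 3 in each, while class IV had 8, 8 and 9 higher in petiole. In these settings the median of all loci was 0.47, 0.72 and 0.36. Loci that were negative in the count test became positive there, in the same order of settings: ATHB-6 MSTRG.27826 (0.29, 0.30, 0.29), ATHB-16-like MSTRG.73 (0.25, 0.25, 0.25), HDG1 MSTRG.20219 (0.49, 0.57, 0.49), HAT22 MSTRG.91 (0.45, 0.47, 0.45), MERISTEM L1-like MSTRG.22532 (0.40, 0.62, 0.40), HDG2 MSTRG.28551 (0.28, 0.46, 0.28) and MSTRG.28939 (0.17, 0.32, 0.17), ATHB-53-like MSTRG.24863 (0.15, 0.20, 0.15) and MSTRG.5975 (0.02, 0.22, 0.02), HAT5-like MSTRG.19882 (0.09, 0.10, 0.09), HDG5-like MSTRG.18416 (0.08, 0.22, 0.08) and REVOLUTA-like MSTRG.3776 (0.04, 0.06, 0.04). HDG7 MSTRG.29286 reached 0.02 without a filter. With FPKM rescaled to the TMM library sizes, chosen after seeing the data, 50 loci were called, 48 of them shared with the count test, and none of the named loci reversed.

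Leaving out each library in turn gave 29 to 32 loci higher in petiole and 16 to 20 higher in leaf. Class III kept 7 and 1 throughout, and class IV had 3 to 4 and 5 to 7. Of the 60 named loci followed under these settings, 4 changed sign, and none of them had passed: HDG11 MSTRG.21179 (-0.15 to 0.34), ATHB-8-like MSTRG.22672 (-0.08 to 0.15), MERISTEM L1-like MSTRG.22532 (-0.24 to 0.12) and HDG7 MSTRG.29286 (-1.16 to 0.07). DESeq2 called 53 loci, including all 50, and RLE scaling called the same 50.

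The replicate numbers gave no pairing, since deviations of same-numbered libraries correlated at 0.024, -0.006 and -0.004. With the replicate block 51 loci were called, 49 of them shared, and GLABRA 2 (adjusted p = 0.122) was lost. Loci under about 1 CPM rest on few fragments. Leaving out the members that overlap another locus, also chosen after seeing the data, left 46 called.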

Other observations

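MERISTEM L1-like MSTRG.22532 shares 1508 bases with each of a pair of undescribed loci on opposite strands, MSTRG.22533 and MSTRG.22534. Their estimated counts nearly matched in leaf (9232, 10340 and 9265 against 9228, 10340 and 9265). In petiole, MSTRG.22533 had 12222 in replicate 1 and 0 in the others, and MSTRG.22534 had 0, 11340 and 799.

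An ATHB-51 locus, MSTRG.30956, and its neighbour MSTRG.30955 both lie over an undescribed locus on the other strand that had 8113 CPM in leaf against 1335 CPM in petiole, against 0.431 and 0.239 CPM for MSTRG.30956.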
